A study of Mus musculus with 12 samples.

Results

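The 42 genes described here encode proteins that the hepatocyte secretes into the blood, together with the apolipoproteins and the proteins that build or remodel lipoprotein particles. They were taken as a list of gene symbols, and all 42 were listed among the 23420 genes of both count tables. The list was sorted by role into the albumin family, carriers of hormones, vitamins and metals, fetuins and their relatives, protease inhibitors, apolipoproteins, and enzymes of lipoprotein assembly and turnover. Polyadenylated RNA was sequenced from homogenized whole mouse embryos at E12.5, with 1 library per embryo and 3 libraries in each of 4 groups. In the *Carm1* line, *Carm1* null embryos carried Carm1tm1Mtb, an allele that lacks exons 2 and 3, and were compared with *Carm1* wild-type embryos, all on C57BL/6. In the *Pax3* line, *Pax3* null embryos carried the splotch allele Pax3Sp2h and were compared with *Pax3* wild-type embryos, all on a background labelled as mixed. Both alleles are carried in every tissue of the embryo, and the parents were heterozygous in both lines. The study set the 2 lines side by side to ask whether loss of the arginine methyltransferase CARM1 and of its reported substrate PAX3 alter the same genes. Neither litter nor sex is given by the labels.

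At this age the liver is the main site of blood formation, and its hepatoblasts have begun to make plasma proteins. Albumin and alpha-fetoprotein carry fatty acids, metals and steroids, the serpins and the inter-alpha-trypsin inhibitors restrain proteases, and the apolipoproteins coat particles that move cholesterol and triglyceride. The visceral endoderm of the yolk sac makes many of the same proteins, the choroid plexus makes transthyretin, and *Apoe* is expressed widely, in macrophages and glia among other cells. Hepatocyte factors such as HNF1, HNF4, FOXA and C/EBP proteins bind the promoters of many of these genes.

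Totals ranged from 17183344 to 23518692 counts per library. Levels are given as CPM, counts scaled to a common library size with TMM factors, in replicate order 1 to 3. *Carm1* was at 71.3, 69.3 and 76.2 CPM in the *Carm1* null and at 151, 145 and 137 CPM in the wild-type libraries. *Pax3* was at 22.4, 22 and 18.1 CPM in the *Pax3* null and at 30.9, 25 and 28.3 CPM in the wild-type libraries, so the splotch transcript was still counted. Wild-type replicate 3 was the one library of the *Carm1* line with Y-linked counts (4804, against 2 to 5 in the others), so sex and replicate cannot be told apart in that line. Both *Pax3*-line genotypes held libraries with and without such counts. Every value is an average over the tissues of an embryo, and fewer hepatocytes and less RNA per hepatocyte cannot be told apart.

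Plasma protein genes were lower in *Carm1* null embryos across nearly every role, whereas in *Pax3* null embryos a few were lower and a few higher. Of the 42 members, 32 passed the filter on low counts in the *Carm1* line and 30 in the *Pax3* line. With the quasi-likelihood test of edgeR, Benjamini-Hochberg adjusted over all genes tested, and a threshold of 0.05, 23 of the 32 fell in *Carm1* null embryos, where 7.83% of all 15811 genes tested fell. None rose, against 5.49% of all genes. At an unadjusted *P* below 0.05 there was 1 higher member, *Cp*, and DESeq2 called 24 lower and 0 higher. In 25 of the 32 the 3 *Carm1* null libraries lay below the 3 wild-type libraries, as in 15.7% of the genes tested, and in 0 they lay above them, as in 14.2% of the genes tested. Over all genes 1238 of the 2106 calls were lower, and 1295 of 3150 once transcript length and GC content were offset, while the members' counts stayed at 23 and 0. The median log2 fold change was -1.03 (quartiles -1.36 and -0.63), beside 0.0014 for all genes. *Serpina1c*, *Serpina1d* and *Apoh* each reached the cutoff of the filter in 2 null and 3 wild-type libraries. With at least 10 counts required in every library, 29 members were tested and 20 fell, with a median of -0.94.

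In *Pax3* null embryos, 3 of the 30 tested members fell by the same edgeR test (*Afp*, *Trf* and *Pzp*), beside 10.5% of all 15724 genes, and 5 rose (*Rbp4*, *Ambp*, *Apoa2*, *Apoc1* and *Apoe*), beside 14.0% of all genes. These shares were close to those of all genes. The libraries did not overlap in 8 members with lower levels and in 4 with higher levels, where 18.9% and 20.7% of all genes did so. The median log2 fold change was -0.16 (quartiles -0.40 and 0.18), beside -0.0026 for all genes. With length and GC offsets, 1 of the 5 higher calls remained, that of *Apoa2*.

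**Figure D1:**
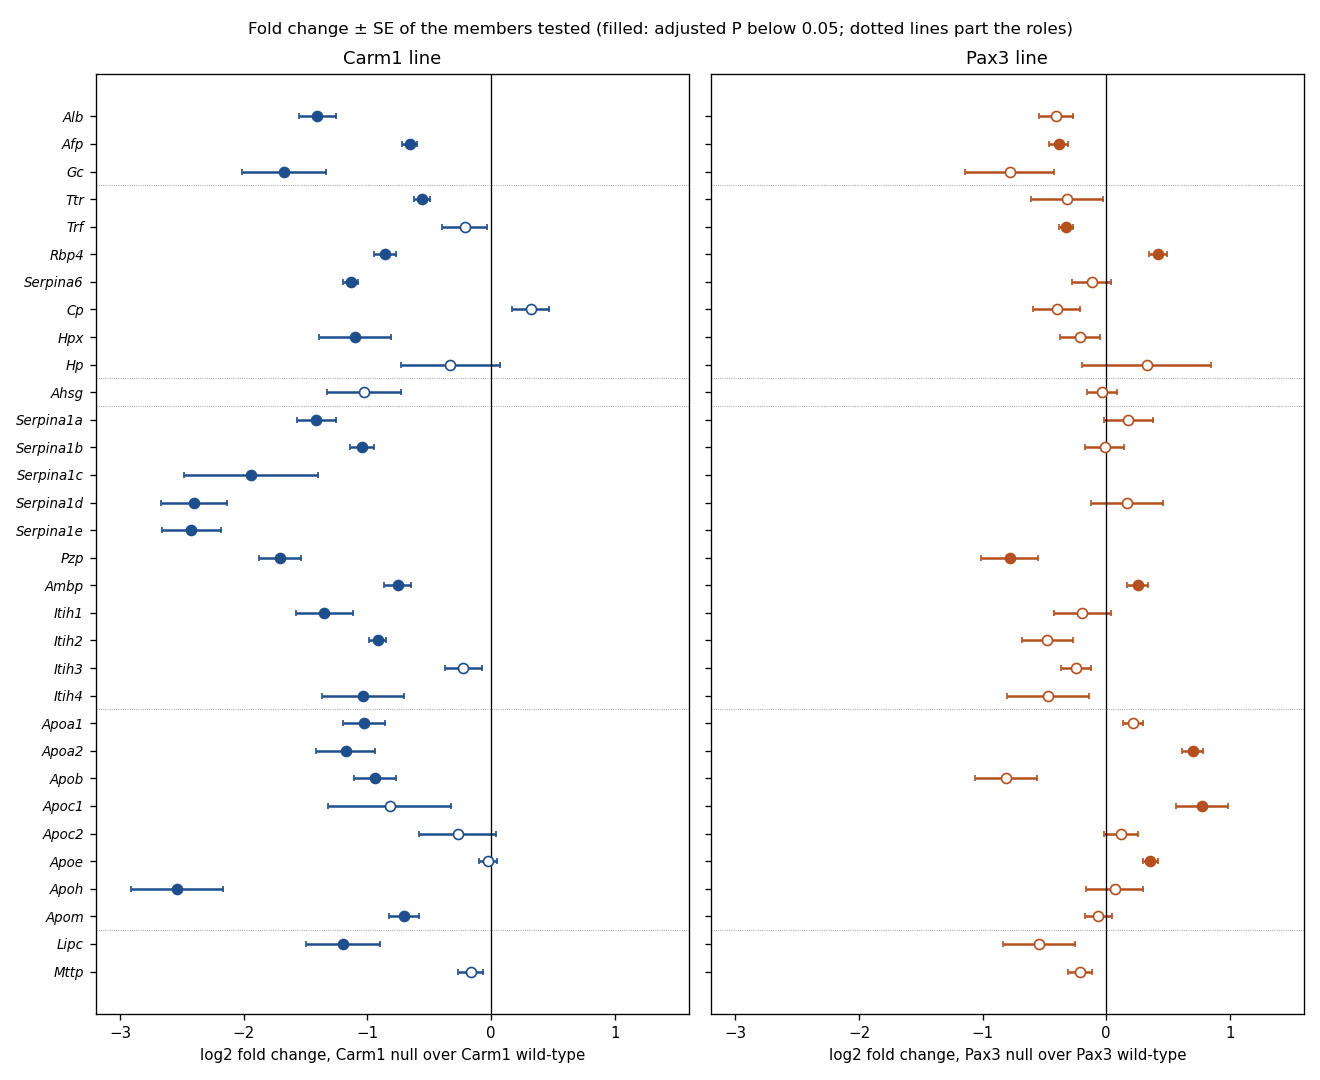
Log2 fold change (horizontal axis, null over wild-type) of each tested member with its standard error, in the *Carm1* line (left, 32 members) and the *Pax3* line (right, 30 members). Filled circles passed the edgeR test with Benjamini-Hochberg adjustment. All filled circles on the left lie below 0, while on the right 3 lie below and 5 above.

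The summed level of the 42 members was 1240, 1450 and 1430 CPM in the *Carm1* null and 2290, 2100 and 2590 CPM in the wild-type libraries. It was 1490, 1380 and 1490 CPM in the *Pax3* null and 1870, 1550 and 1760 CPM in their wild-type libraries. The null libraries lay below the wild-type libraries in both lines, by a wider margin in the *Carm1* line. *Alb* and *Afp* together held 48.0% to 57.8% of the members' counts in the 12 libraries. Compared per kilobase of exon, wild-type *Carm1*-line embryos had most *Afp* (223 CPM per kb) and *Alb* (220), followed by *Apoe* (78.4), *Apoa2* (69.9), *Ttr* (60.8) and *Trf* (58.7).

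The albumin family holds *Alb*, *Afp* and *Gc*, the vitamin D binding protein, which lie near each other on chromosome 5. All 3 fell in *Carm1* null embryos. *Alb* was at 163, 220 and 200 CPM in the *Carm1* null and at 474, 493 and 576 CPM in the wild-type libraries. Its level was 37.7% of wild type (log2 fold change -1.41, SE 0.15, edgeR, Benjamini-Hochberg adjusted *P* = 0.0079), with no overlap between the groups. *Afp*, the fetal counterpart of albumin, was at 447, 495 and 488 CPM against 762, 671 and 821 CPM. It kept 63.4% of the wild-type level (log2 fold change -0.66, SE 0.061, edgeR, Benjamini-Hochberg adjusted *P* = 2.2e-07). *Gc* was at 0.604, 2.24 and 1.41 CPM against 3.26, 4.21 and 6.05 CPM, or 31.3% of wild type (log2 fold change -1.68, SE 0.34, edgeR, Benjamini-Hochberg adjusted *P* = 0.0045). These calls were kept without each of the 6 libraries in turn.

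*Afp* in the *Pax3* line was at 506, 477 and 497 CPM in the null and at 649, 555 and 725 CPM in the wild-type libraries. That difference passed the test (log2 fold change -0.38, SE 0.077, edgeR, Benjamini-Hochberg adjusted *P* = 0.00070). *Alb* was at 263, 223 and 259 CPM against 397, 298 and 292 CPM, again without overlap. It did not pass (log2 fold change -0.41, SE 0.14, edgeR, Benjamini-Hochberg adjusted *P* = 0.089), but did without wild-type replicate 1, the highest library (-0.25, adjusted *P* = 0.0064, edgeR with Benjamini-Hochberg adjustment). *Gc* was at 1.79, 1.55 and 1.19 CPM against 2.29, 1.16 and 4.08 CPM, and the groups overlapped. Without wild-type replicate 2, the lowest library of its group, *Gc* passed (-1.09, edgeR, Benjamini-Hochberg adjusted *P* = 0.0073).

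The ratio of *Alb* to *Afp*, which rises as hepatoblasts mature, was 0.364, 0.444 and 0.409 in the *Carm1* null and 0.622, 0.735 and 0.701 in the wild-type libraries. The groups did not overlap, and the exact permutation test of 3 against 3 libraries cannot go below *P* = 0.1. Its values in the *Pax3* line were 0.520, 0.468 and 0.520 in the null and 0.611, 0.537 and 0.404 in the wild-type libraries, which overlapped.

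The promoters of these 3 genes are shown because each holds a short HNF1 motif (GTTAAT on either strand). In the RefSeq table for GRCm38.p6 the 120 bases before the start lie at chr5:90460750-90460869 for *Alb*, chr5:90490594-90490713 for *Afp*, both on the plus strand, and chr5:89457899-89458018 for *Gc* on the minus strand. They read 5′ to 3′ with matches to HNF1 (GTTAAT or TTAATNATT, which overlap in *Afp* and *Gc*), C/EBP (TTGCNNAA) and the TATA box, searched as TATAAA, in capitals.
Alb: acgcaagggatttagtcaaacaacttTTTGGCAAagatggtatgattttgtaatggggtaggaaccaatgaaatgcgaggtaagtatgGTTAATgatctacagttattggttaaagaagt
Afp: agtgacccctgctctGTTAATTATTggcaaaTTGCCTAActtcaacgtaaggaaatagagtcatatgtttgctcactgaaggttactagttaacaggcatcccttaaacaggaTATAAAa
Gc: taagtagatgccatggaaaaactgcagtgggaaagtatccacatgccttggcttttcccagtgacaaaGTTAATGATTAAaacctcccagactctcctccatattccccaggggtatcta
The short motif began 32 bases before the start in *Alb*, 105 in *Afp* and 52 in *Gc*. A match of letters is a description and does not show that a factor binds there.

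Of 9 carriers of hormones, vitamins and metals, 7 were tested in each line. In *Carm1* null embryos *Ttr*, *Rbp4*, *Serpina6* and *Hpx* fell, while *Trf*, *Cp* and *Hp* did not pass. *Serpina6*, the corticosteroid-binding globulin, showed the smallest adjusted *P* of all members. It was at 38.5, 39.1 and 38.1 CPM in the *Carm1* null and at 88.9, 77.6 and 88.5 CPM in the wild-type libraries, so the null libraries lay close together. Its level was 45.5% of wild type (log2 fold change -1.14, SE 0.058, edgeR, Benjamini-Hochberg adjusted *P* = 1.2e-15). *Rbp4*, which carries retinol in plasma, was at 27.0, 28.0 and 25.3 CPM against 49.2, 41.4 and 55.4 CPM. It kept 55.2% of the wild-type level (log2 fold change -0.86, SE 0.087, edgeR, Benjamini-Hochberg adjusted *P* = 1.1e-06). *Ttr*, which binds thyroxine and the retinol-binding protein, was at 48.8, 47.1 and 51.1 CPM against 68.1, 67.6 and 80.5 CPM. It kept 67.9% (log2 fold change -0.56, SE 0.062, edgeR, Benjamini-Hochberg adjusted *P* = 1.2e-07), though in one fit of all 12 libraries the adjusted *P* was 0.16 (edgeR, Benjamini-Hochberg). *Hpx*, which scavenges heme, was at 2.74, 3.47 and 3.83 CPM against 5.40, 5.42 and 10.7 CPM (log2 fold change -1.10, SE 0.29, edgeR, Benjamini-Hochberg adjusted *P* = 0.030). The *Hpx* call was lost without any 1 of the null libraries (edgeR, Benjamini-Hochberg adjusted *P* = 0.14, 0.11 and 0.075 without null replicates 1 to 3), and without wild-type replicate 3 the log2 fold change was -0.69 (0.012).

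The iron and copper carriers did not pass. *Trf*, the plasma iron carrier, was at 130, 184 and 190 CPM in the *Carm1* null and at 207, 179 and 199 CPM in the wild-type libraries, which overlapped (log2 fold change -0.21, SE 0.18, edgeR, Benjamini-Hochberg adjusted *P* = 0.54). *Cp*, the copper-carrying ferroxidase, was at 6.91, 6.50 and 5.36 CPM against 4.63, 5.37 and 4.97 CPM, the one tested member with a higher fitted level in *Carm1* null embryos (log2 fold change 0.32, SE 0.15, edgeR, Benjamini-Hochberg adjusted *P* = 0.17). Most 150-base windows of *Trf* (74.8%) also occur in a readthrough model, which the count tables do not list. *Cp* shares 108 exon bases with *Hps3* on the opposite strand, so its count is uncertain. *Hp*, which binds free hemoglobin, was at 2.02 and 1.72 CPM in wild-type replicates 1 and 2 and at 5.27 CPM in replicate 3. Its log2 fold change of -0.33 became 0.37 without wild-type replicate 3, and neither value passed.

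*Rbp4* in the *Pax3* line was at 45.1, 40.0 and 43.4 CPM in the null and at 31.7, 31.6 and 32.6 CPM in the wild-type libraries, with every null library above every wild-type library. It rose (log2 fold change 0.42, SE 0.076, edgeR, Benjamini-Hochberg adjusted *P* = 0.00020). With length and GC offsets the log2 fold change was 0.17 and the call was lost (edgeR, Benjamini-Hochberg adjusted *P* = 0.11). *Trf* was at 143, 137 and 137 CPM against 187, 163 and 173 CPM. It fell (log2 fold change -0.33, SE 0.056, edgeR, Benjamini-Hochberg adjusted *P* = 0.00010), with an adjusted *P* of 0.093 in one fit of all 12 libraries. *Ttr* was at 30.7, 27.0 and 51.8 CPM against 44.9, 42.1 and 49.2 CPM. The third null library stood above the others, and without it *Ttr* passed (log2 fold change -0.66, edgeR, Benjamini-Hochberg adjusted *P* = 2e-05), against -0.32 and an adjusted *P* of 0.52 with it. *Serpina6* was at 74.5, 67.4 and 70.3 CPM against 95.9, 67.6 and 66.8 CPM, and the groups overlapped (log2 fold change -0.12, SE 0.16, edgeR, Benjamini-Hochberg adjusted *P* = 0.66). *Hpx* was at 3.67, 4.01 and 4.41 CPM against 4.29, 4.81 and 4.90 CPM. *Cp* was at 3.67, 3.10 and 3.10 CPM against 4.98, 5.10 and 3.09 CPM. Neither of these passed, but without wild-type replicate 3 *Cp* did (log2 fold change -0.61, edgeR, Benjamini-Hochberg adjusted *P* = 0.020).

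**Figure D2:**
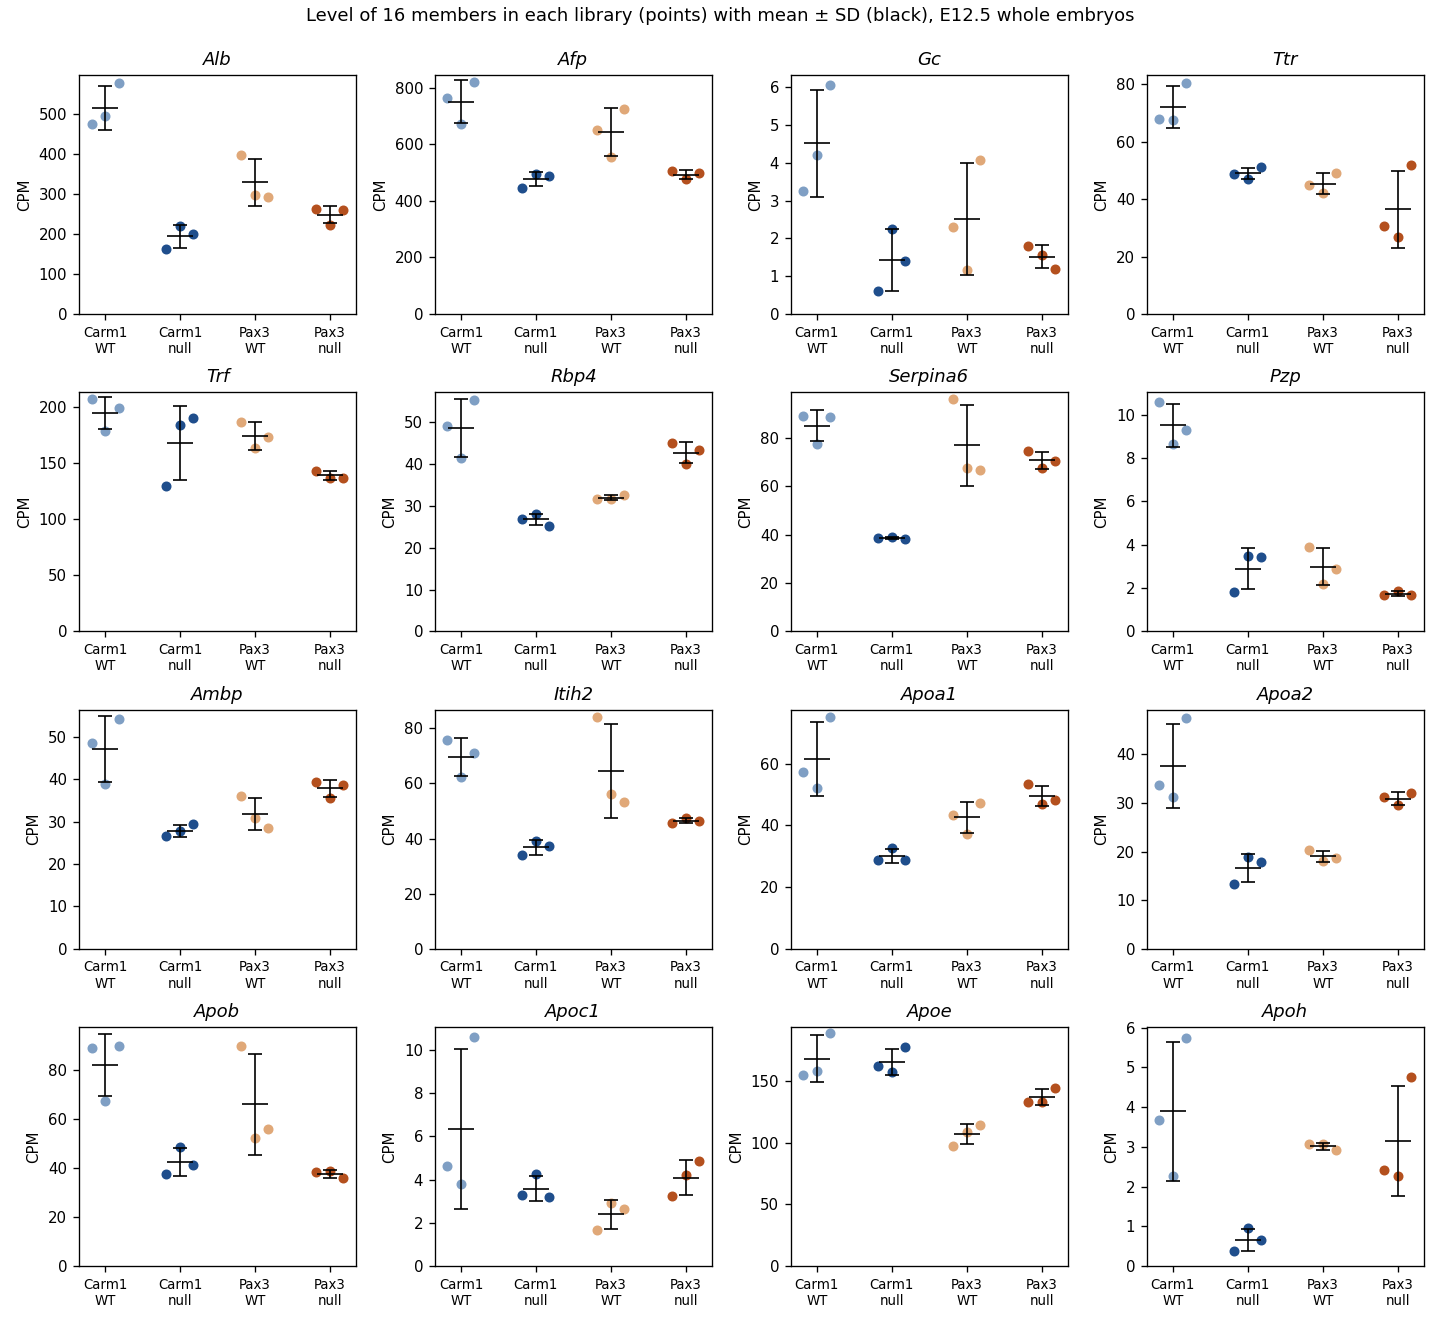
CPM (vertical axis, linear from 0) of 16 members in each of the 12 libraries, with the mean and SD of each group of 3 in black. *Serpina6* in the *Carm1* null lay between 38.1 and 39.1 CPM, below every other library, whereas *Rbp4* and *Apoa2* were lower in the *Carm1* null and higher in the *Pax3* null than in their own wild-type libraries.

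Of the fetuins and their relatives, *Ahsg*, the fetal serum glycoprotein that inhibits calcification, was the one tested. It was at 6.80, 11.4 and 14.4 CPM in the *Carm1* null and at 22.4, 18.5 and 25.6 CPM in the wild-type libraries. The groups did not overlap, and the log2 fold change of -1.03 (SE 0.30) did not pass (edgeR, Benjamini-Hochberg adjusted *P* = 0.11). It passed with DESeq2 (Benjamini-Hochberg adjusted *P* = 0.026) and, by edgeR, without null replicate 1 (0.00081) or null replicate 3 (0.014). *Ahsg* in the *Pax3* line was at 11.6, 9.01 and 9.67 CPM in the null and at 11.4, 9.27 and 10.3 CPM in the wild-type libraries.

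Of the 11 protease inhibitors tested, 10 fell in *Carm1* null embryos, with a median log2 fold change of -1.35. *Serpina1c* and *Serpina1d*, which reached the cutoff of the filter in 2 null and 3 wild-type libraries, were included. All 5 *Serpina1* copies, which encode alpha-1 antitrypsins, were among the 10. Together they gave 22.3, 31.2 and 28.4 CPM in the *Carm1* null and 61.4, 58.7 and 80.8 CPM in the wild-type libraries. Most of these counts fell on *Serpina1b*. *Serpina1b* was at 17.1, 23.0 and 21.2 CPM against 40.0, 38.3 and 48.0 CPM, or 48.5% of wild type (log2 fold change -1.04, SE 0.10, edgeR, Benjamini-Hochberg adjusted *P* = 4.2e-06). *Serpina1a* was at 3.29, 4.48 and 4.30 CPM against 9.31, 9.41 and 13.4 CPM, or 37.6% (log2 fold change -1.41, SE 0.16, edgeR, Benjamini-Hochberg adjusted *P* = 1.1e-07). *Serpina1e* was at 0.658, 1.62 and 1.53 CPM against 5.87, 5.85 and 8.73 CPM, or 18.6% (log2 fold change -2.43, SE 0.24, edgeR, Benjamini-Hochberg adjusted *P* = 3.3e-08). *Serpina1d* was at 0.878, 1.01 and 0.530 CPM against 4.33, 3.35 and 5.31 CPM (log2 fold change -2.40). *Serpina1c* was at 0.384, 1.12 and 0.884 CPM against 1.96, 1.81 and 5.41 CPM (log2 fold change -1.94, edgeR, Benjamini-Hochberg adjusted *P* = 0.043), and its call was lost without any 1 of the null libraries (0.15, 0.086 and 0.20 without null replicates 1 to 3). Without wild-type replicate 3, the highest library, the log2 fold change of *Serpina1c* was -1.24 (edgeR, Benjamini-Hochberg adjusted *P* = 0.019).

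The copies are near identical, so a count on one is not independent of the others. Between 7.57% (*Serpina1e*) and 50.5% (*Serpina1c*) of the windows of read length, 150 bases, in a copy also occur in another copy or in the pseudogene *Gm8893*. *Serpina1b* took 73.6% to 76.7% of the counts on the 5 copies in the *Carm1* null libraries and 59.4% to 65.2% in the wild-type libraries. *Serpina1e* took 2.95% to 5.39% and 9.56% to 10.8%.

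In the *Pax3* line the 5 copies gave 9.70, 9.52 and 10.7 CPM in the null and 9.47, 9.79 and 8.29 CPM in the wild-type libraries. These sums lay below those of every library of the *Carm1* line, in both genotypes. *Serpina1e* had 0 to 4 counts in each of the 6 libraries of the *Pax3* line and *Serpina1c* had 2 to 14, and neither was tested there. *Serpina1b* was at 4.65, 4.51 and 4.84 CPM in the *Pax3* null and at 5.22, 5.27 and 3.74 CPM in the wild-type libraries, *Serpina1a* at 3, 2.96 and 3.44 CPM against 2.49, 2.32 and 3.39 CPM, and *Serpina1d* at 1.30, 1.37 and 2.12 CPM against 1.46, 1.80 and 1.07 CPM. The groups overlapped in all 3, and none passed. The lines differ in strain background and in their cohort of embryos, and reads were aligned to one genome build, so these cannot be told apart as sources of the difference in level between lines.

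**Figure D3:**
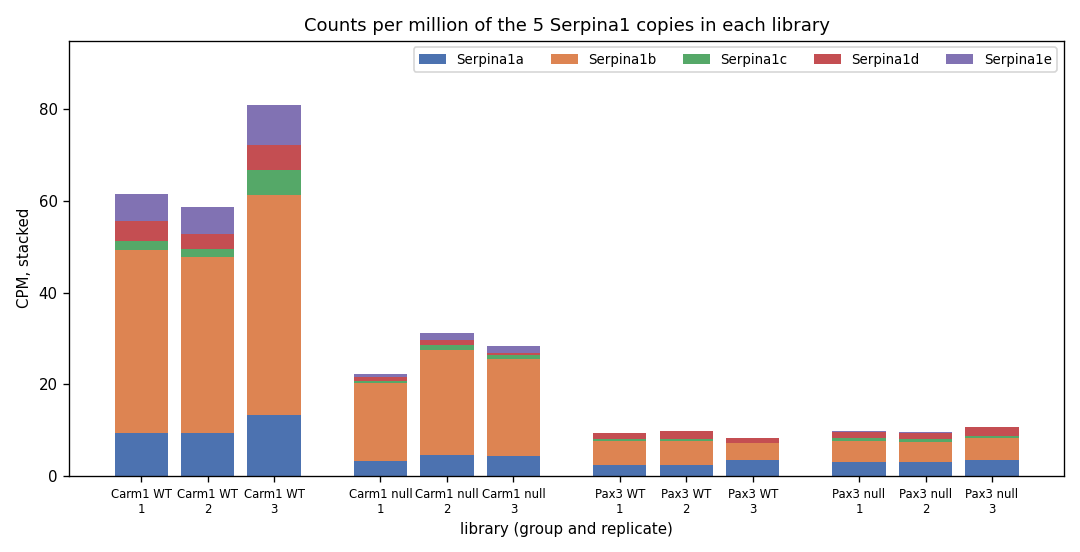
CPM of the 5 *Serpina1* copies, stacked, in each of the 12 libraries (horizontal axis, by group and replicate). The sums lie between 58.7 and 80.8 CPM in the *Carm1* wild-type libraries, between 22.3 and 31.2 CPM in the *Carm1* null and between 8.29 and 10.7 CPM in the *Pax3* line, where *Serpina1e* is barely visible.

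The bases that all 5 copies share before their starts are shown because the copies fell together. In the 120-base windows of the RefSeq table (GRCm38.p6) the longest run held by all 5 was 55 bases long and lies on the minus strand of chromosome 12, for *Serpina1a* at chr12:103863625-103863679 and for *Serpina1e* at chr12:103956960-103957014. The short HNF1 motif is in capitals.
Serpina1 shared run: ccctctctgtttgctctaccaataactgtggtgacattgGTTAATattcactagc
The first base of the motif lies 16 to 27 bases before the annotated start of *Serpina1a* to *Serpina1d* and 78 bases before that of *Serpina1e*. The run is the same before *Serpina1b*, the copy with the most counts, and *Serpina1e*, which was hardly counted in the *Pax3* line. It is the sequence of the genome build, and that of the mixed background of the *Pax3* line was not examined.

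*Pzp*, a broad inhibitor of the alpha-2-macroglobulin family, was at 1.81, 3.47 and 3.42 CPM in the *Carm1* null and at 10.6, 8.64 and 9.31 CPM in the wild-type libraries. It kept 30.5% of the wild-type level (log2 fold change -1.71, SE 0.17, edgeR, Benjamini-Hochberg adjusted *P* = 1.9e-08). It also fell in the *Pax3* null, at 1.70, 1.87 and 1.70 CPM against 3.90, 2.20 and 2.88 CPM (log2 fold change -0.78, SE 0.23, edgeR, Benjamini-Hochberg adjusted *P* = 0.014). The *Pax3* call was lost without wild-type replicate 1 (0.14) or null replicate 3 (0.053, edgeR with Benjamini-Hochberg adjustment). *Pzp* shares 303 exon bases with the antisense gene *Gm10069*.

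*Ambp* encodes bikunin, the light chain of the inter-alpha-trypsin inhibitors, together with alpha-1-microglobulin. It was at 26.6, 27.8 and 29.4 CPM in the *Carm1* null and at 48.6, 38.8 and 54.3 CPM in the wild-type libraries (log2 fold change -0.75, SE 0.11, edgeR, Benjamini-Hochberg adjusted *P* = 0.00076). Its level in the *Pax3* line was 39.4, 35.6 and 38.7 CPM against 36.0, 30.8 and 28.6 CPM, which overlapped. That rise passed (log2 fold change 0.26, SE 0.086, edgeR, Benjamini-Hochberg adjusted *P* = 0.030) but was lost without wild-type replicate 2 or 3 or null replicate 1 or 3 (edgeR, Benjamini-Hochberg adjusted *P* = 0.080, 0.16, 0.11 and 0.10). With length and GC offsets the log2 fold change was 0.03.

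Of the heavy chains, *Itih1*, *Itih2* and *Itih4* fell in *Carm1* null embryos and *Itih3* did not pass. *Itih2*, with the highest level, was at 34.0, 39.3 and 37.2 CPM against 75.9, 62.2 and 71.0 CPM, or 53.0% of wild type (log2 fold change -0.92, SE 0.068, edgeR, Benjamini-Hochberg adjusted *P* = 1e-10). *Itih1* was at 1.37, 1.85 and 2.18 CPM against 5.93, 3.61 and 4.39 CPM (log2 fold change -1.35, edgeR, Benjamini-Hochberg adjusted *P* = 7e-05). *Itih3* was at 6.86, 11.8 and 11.5 CPM against 11.4, 11 and 12.8 CPM (log2 fold change -0.23, edgeR, Benjamini-Hochberg adjusted *P* = 0.39). *Itih4* was at 0.658, 1.12 and 1.24 CPM against 1.90, 1.29 and 3.02 CPM. It passed (-1.04, edgeR, Benjamini-Hochberg adjusted *P* = 0.034), but not without wild-type replicate 3 (-0.64, 0.27), nor without null replicates 1 to 3 (0.20, 0.086 and 0.050). None of the 4 heavy chains passed in the *Pax3* line, with log2 fold changes from -0.47 to -0.19. *Itih2* was at 45.5, 47.3 and 46.5 CPM in the null and at 84.3, 56.2 and 53.2 CPM in the wild-type libraries, and passed without wild-type replicate 1 (-0.23, edgeR, Benjamini-Hochberg adjusted *P* = 0.021). *Itih3* was at 9.43, 8.70 and 8.19 CPM against 11.7, 9.79 and 9.71 CPM, and *Itih1* at 2.77, 1.96 and 1.95 CPM against 2.44, 1.91 and 3.18 CPM.

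Apolipoproteins split by gene. In *Carm1* null embryos *Apoa1*, *Apoa2*, *Apob*, *Apoh* and *Apom* fell, 5 of the 8 tested, while *Apoc1*, *Apoc2* and *Apoe* did not pass. *Apoe*, the widely expressed ligand of lipoprotein receptors, was at 162, 157 and 177 CPM in the *Carm1* null and at 155, 158 and 189 CPM in the wild-type libraries, or 98.4% of wild type (log2 fold change -0.02, SE 0.072, edgeR, Benjamini-Hochberg adjusted *P* = 0.88). *Apoa1*, the main protein of high-density lipoprotein, was at 28.9, 32.8 and 28.8 CPM against 57.4, 52.3 and 75.2 CPM, or 49.0% (log2 fold change -1.03, SE 0.17, edgeR, Benjamini-Hochberg adjusted *P* = 0.019). *Apoa2*, which accompanies it on the same particles, was at 13.3, 18.8 and 17.8 CPM against 33.8, 31.3 and 47.5 CPM, or 44.3% (log2 fold change -1.18, SE 0.24, edgeR, Benjamini-Hochberg adjusted *P* = 0.046). *Apob*, the structural protein of low-density lipoprotein, was at 37.5, 48.8 and 41.5 CPM against 89.1, 67.5 and 89.8 CPM, or 52.1% (log2 fold change -0.94, SE 0.17, edgeR, Benjamini-Hochberg adjusted *P* = 0.032). The groups did not overlap in any of these 3, yet each call was lost in several fits that left out 1 library. *Apoa1* lost its call without null replicate 1 or 3 or wild-type replicate 1 (edgeR, Benjamini-Hochberg adjusted *P* = 0.085, 0.078 and 0.073). *Apoa2* lost it without null replicates 1 to 3 or wild-type replicate 1 (0.077, 0.087, 0.13 and 0.10), and *Apob* without null replicate 1 or 3 or wild-type replicate 1 or 3 (0.055, 0.12, 0.10 and 0.095). Over all 15 alternatives the log2 fold change of *Apoa1* ran from -1.14 to -0.86, that of *Apoa2* from -1.29 to -0.97 and that of *Apob* from -1.07 to -0.85. *Apob* also lost its call with the replicate number as a block (edgeR, Benjamini-Hochberg adjusted *P* = 0.13) and with a term for Y-linked counts (0.095).

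*Apoh*, or beta-2 glycoprotein I, which binds anionic phospholipid, was at 0.384, 0.952 and 0.648 CPM in the *Carm1* null and at 3.68, 2.28 and 5.75 CPM in the wild-type libraries (log2 fold change -2.54, SE 0.37, edgeR, Benjamini-Hochberg adjusted *P* = 7.4e-05), with 7 to 17 counts in a null library. *Apom*, which carries sphingosine-1-phosphate, was at 8.67, 12.5 and 10.3 CPM against 16.9, 15.2 and 19.3 CPM (log2 fold change -0.71, SE 0.12, edgeR, Benjamini-Hochberg adjusted *P* = 7.5e-05). *Apoc1* was at 3.29, 4.26 and 3.18 CPM against 4.63, 3.78 and 10.6 CPM. *Apoc2*, the cofactor of lipoprotein lipase, was at 7.68, 7.90 and 8.78 CPM against 11.1, 5.80 and 12.8 CPM, and 86.2% of its 150-base windows also occur in a readthrough model that the count tables do not list. Without wild-type replicate 2, its lowest library, *Apoc2* passed (log2 fold change -0.56, edgeR, Benjamini-Hochberg adjusted *P* = 0.0060), against -0.27 and 0.66 with it.

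In the *Pax3* line 3 of the 8 tested apolipoproteins rose by edgeR, beside 14.0% of all genes, and 6 of 8 had a fitted level above wild type. Of these 6, *Apoa1*, *Apoc2* and *Apoh* had a fitted level below wild type once length and GC were offset. *Apoa2* was at 31.2, 29.5 and 32.1 CPM in the null and at 20.3, 18.1 and 18.7 CPM in the wild-type libraries, far apart beside the spread within either group (log2 fold change 0.70, SE 0.083, edgeR, Benjamini-Hochberg adjusted *P* = 5.8e-07). *Apoe* was at 133, 133 and 144 CPM against 97.6, 109 and 114 CPM (log2 fold change 0.36, SE 0.060, edgeR, Benjamini-Hochberg adjusted *P* = 7.3e-05). *Apoc1* was at 3.22, 4.19 and 4.84 CPM against 1.66, 2.90 and 2.62 CPM (log2 fold change 0.78, SE 0.21, edgeR, Benjamini-Hochberg adjusted *P* = 0.0081). With length and GC offsets *Apoa2* was still higher (0.39), while *Apoe* (0.12, edgeR, Benjamini-Hochberg adjusted *P* = 0.082) and *Apoc1* (0.46, 0.12) lost their calls. *Apoc1* also lost it without wild-type replicate 1 (0.064) or null replicate 3 (0.072). *Apoa1* was at 53.3, 47.0 and 48.4 CPM against 43.4, 37.3 and 47.2 CPM (log2 fold change 0.21, edgeR, Benjamini-Hochberg adjusted *P* = 0.051) and had a log2 fold change of -0.07 with length and GC offsets. The exons of these genes span 537 bases for *Apoa2*, 744 for *Apoc1*, 1236 for *Apoa1* and 2138 for *Apoe*.

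*Apob*, whose exons span 13934 bases, was at 38.4, 38.7 and 36.0 CPM in the *Pax3* null and at 89.9, 52.4 and 56.1 CPM in the wild-type libraries. The groups did not overlap (log2 fold change -0.81, SE 0.25, edgeR, Benjamini-Hochberg adjusted *P* = 0.094). Without wild-type replicate 1, the highest library, the difference was smaller and passed (-0.53, edgeR, Benjamini-Hochberg adjusted *P* = 1.3e-05), and it passed with DESeq2 as well (Benjamini-Hochberg adjusted *P* = 0.012). *Apoh* was at 2.41, 2.28 and 4.75 CPM against 3.07, 3.07 and 2.92 CPM, *Apom* at 11.3, 9.33 and 10.4 CPM against 10.4, 11.2 and 10.9 CPM, and *Apoc2* at 6.88, 6.74 and 7.85 CPM against 6.25, 5.50 and 7.86 CPM. The groups overlapped in these 3.

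**Figure D4:**
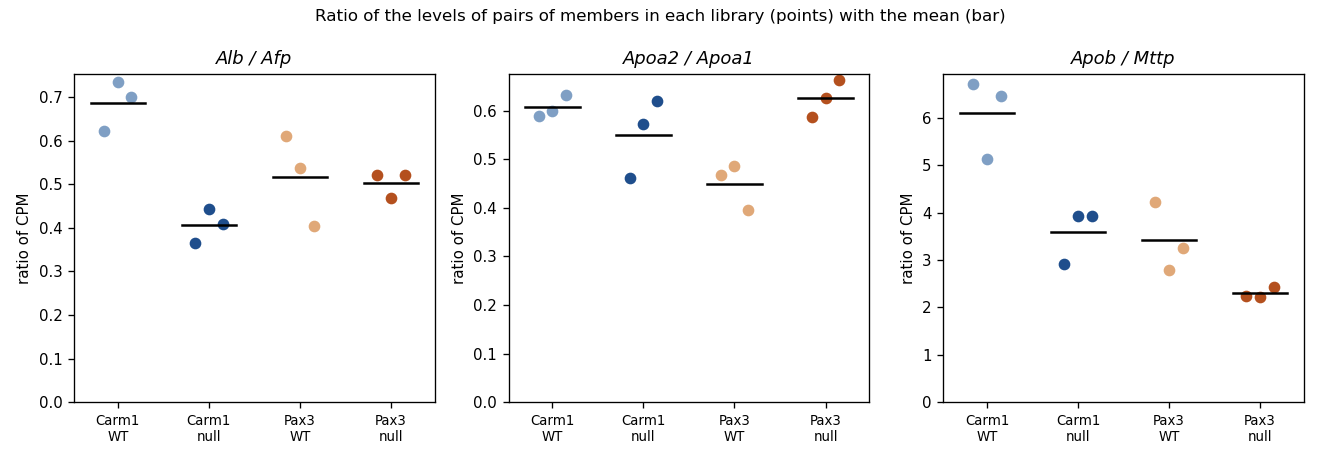
Ratios of the CPM of 2 members within a library (vertical axes, from 0), by group, with the mean as a bar. *Alb* over *Afp* was lower in the *Carm1* null than in its wild-type libraries, *Apob* over *Mttp* was lower in the null of both lines without overlap, and *Apoa2* over *Apoa1* was higher in the *Pax3* null (0.586 to 0.663) than in its wild-type libraries (0.396 to 0.486).

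The promoters of *Apoa2* and *Apoh* are shown because both hold the same FOXA motif, while *Apoa2* rose in the *Pax3* null and *Apoh* did not pass there. The 120 bases before the start, the downstream one of 2 listed for *Apoa2*, lie at chr1:171224934-171225053 and chr11:108395177-108395296 of GRCm38.p6, both on the plus strand, from the RefSeq table, with the match to the FOXA motif TGTTTAC in capitals.
Apoa2: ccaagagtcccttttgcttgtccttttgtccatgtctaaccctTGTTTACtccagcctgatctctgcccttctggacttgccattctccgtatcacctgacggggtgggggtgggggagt
Apoh: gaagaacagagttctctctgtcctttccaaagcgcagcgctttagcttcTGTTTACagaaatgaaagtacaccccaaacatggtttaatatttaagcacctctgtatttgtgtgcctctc
The motif begins 77 bases before the *Apoa2* start and 71 bases before the *Apoh* start. It was also found further before *Rbp4* and *Fetub*. *Rbp4* rose in the *Pax3* null as well, a call lost with length and GC offsets, and *Fetub* was not tested.

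The 2 enzymes differed in *Carm1* null embryos. *Lipc*, hepatic lipase, was at 0.988, 0.672 and 1.06 CPM against 2.19, 1.81 and 2.29 CPM (log2 fold change -1.20, SE 0.30, edgeR, Benjamini-Hochberg adjusted *P* = 0.0059), with an adjusted *P* of 0.055 without null replicate 2. *Mttp*, which loads lipid onto apolipoprotein B, was at 12.9, 12.4 and 10.6 CPM against 13.3, 13.2 and 13.9 CPM (log2 fold change -0.16, SE 0.10, edgeR, Benjamini-Hochberg adjusted *P* = 0.32). It shares 457 exon bases with *Trmt10a* on the opposite strand. The ratio of *Apob* to *Mttp* was 2.91, 3.93 and 3.92 in the *Carm1* null and 6.71, 5.13 and 6.46 in the wild-type libraries, without overlap. Neither enzyme passed in the *Pax3* line, with *Lipc* at 1.21, 0.819 and 1.15 CPM in the null and 1.27, 1.45 and 1.89 CPM in the wild-type libraries, and *Mttp* at 17.1, 17.5 and 14.8 CPM against 21.3, 18.8 and 17.3 CPM. The *Apob* to *Mttp* ratio was 2.25, 2.21 and 2.43 against 4.22, 2.79 and 3.25 there, also without overlap.

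The 10 members not tested in either line were *Serpina7*, *Orm1*, *Fetub*, *Hrg*, *Serpina3k*, *Serpina3m*, *Apoa4*, *Apoa5*, *Apoc3* and *Apoc4*. They include carriers of thyroid hormone and of basic drugs, a histidine-rich glycoprotein and the apolipoproteins of triglyceride-rich particles. In the *Carm1* line they held 209 counts together in wild-type replicate 3 and 6 to 16 in each of the other 5 libraries. *Serpina3k* had 59 counts there and 0 to 2 in the others, *Apoc3* had 49 against 0 to 3, and *Apoa5* had 19 against 0 to 5. By CPM, the same library was the highest of its line for every tested member except *Trf*, *Serpina6*, *Cp*, *Pzp*, *Itih1* and *Itih2*. It is also the one library of that line with Y-linked counts. Without it, 21 members fell in *Carm1* null embryos by edgeR and the median log2 fold change was -0.86. *Apoa4* in the *Pax3* line had 259 counts in wild-type replicate 3 and 0 to 4 in each of the other 5 libraries.

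Counting all 42 members by their mean CPM with no filter, 40 were lower and 2 higher in the *Carm1* null. Of all genes with a count in that line, 50.7% were lower. Without wild-type replicate 3, 33 were lower, 8 higher and 1 had no count. In the *Pax3* null 50.3% of all genes with a count in that line were lower. Of the members, 23 were lower, 16 higher and 3 had no count. That balance turned without wild-type replicate 1 (18 lower and 21 higher) and without null replicate 2 (19 lower and 20 higher).

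The difference between the lines was tested directly as the *Carm1* null effect minus the *Pax3* null effect, in one edgeR fit of all 12 libraries. Of 32 members tested, 17 had a lower effect in the *Carm1* line, beside 10.5% of all 16292 genes. A higher effect was called for 1 (*Cp*), beside 8.65% of all genes. The median difference was -0.90 on the log2 scale, beside -0.001 for all genes. *Serpina1c*, *Serpina1d* and *Apoh*, among the 17, had each reached the filter cutoff of the *Carm1* line in 2 null and 3 wild-type libraries. With at least 10 counts required in every library, 27 members were tested, and 13 had a lower effect and 1 a higher one. The median difference was then -0.88. *Rbp4* (-1.27, SE 0.11, edgeR, Benjamini-Hochberg adjusted *P* = 3.6e-09), *Ambp* (-1.0, 7.9e-05) and *Apoa2* (-1.86, SE 0.21, 6.2e-05) were called lower in one line and higher in the other. *Alb* (-0.99, SE 0.22, edgeR, Benjamini-Hochberg adjusted *P* = 0.017), *Serpina6* (-1.01, 0.0048), *Apoa1* (-1.23, 0.0019), *Apoh* (-2.60, 0.0037) and *Apom* (-0.63, 0.0065) also differed. *Apoe*, which rose in the *Pax3* null and did not pass in the *Carm1* null, differed by -0.37 (edgeR, Benjamini-Hochberg adjusted *P* = 0.010). With length and GC offsets, *Apoe*, *Apom*, *Hpx* and *Cp* no longer passed. The calls of *Cp*, *Hpx*, *Pzp*, *Itih1* and *Serpina1e* were also lost in at least 1 fit that left out a library, with an adjusted *P* of up to 0.10, 0.19, 0.12, 0.062 and 0.49 (edgeR, Benjamini-Hochberg). *Serpina1e* had 5 counts or fewer in each *Pax3*-line group, so its fitted difference is no bound. In the *Pax3* line it reached the filter cutoff in 0 libraries of either group, and *Serpina1c* in 2 null and 0 wild-type libraries. The differences of *Serpina1c* (-3.07, SE 0.83) and *Serpina1e* (-4.24, SE 1.6) therefore subtract a *Pax3* effect fitted to very few counts. *Afp* (-0.26, SE 0.12, edgeR, Benjamini-Hochberg adjusted *P* = 0.12), *Gc*, *Ttr*, *Trf*, *Hp*, *Ahsg*, *Itih2*, *Itih3*, *Itih4*, *Apob*, *Apoc1*, *Apoc2*, *Lipc* and *Mttp* did not pass. *Apob*, with a lower fitted level in both lines, had a difference of -0.12 (SE 0.31).

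Other genes of the liver were read from lists set by role. Of all genes tested, 7.83% fell and 5.49% rose in the *Carm1* line by edgeR, and 10.5% fell and 14.0% rose in the *Pax3* line. Of 20 tested genes of coagulation and complement, which hepatocytes also secrete, 16 fell in *Carm1* null embryos, with a median log2 fold change of -1.0. *C3* fell by 0.82 on the log2 scale (edgeR, Benjamini-Hochberg adjusted *P* = 0.036), and the fibrinogen chains *Fgb* and *Fga* by 0.80 and 1.04. In *Pax3* null embryos 4 of 19 fell (*F5*, *Fga*, *Plg* and *Serpind1*), with a median of -0.07. Of 11 tested genes that hepatocytes keep inside the cell, 6 fell in *Carm1* null embryos (median -1.07), among them *Fabp1* (-2.29, edgeR, Benjamini-Hochberg adjusted *P* = 0.00028), which binds fatty acids, and the gap junction gene *Gjb1* (-1.47, 0.00018). *Arg1* and *Asgr1* had values above 0 (0.25 and 0.25) and did not pass. In *Pax3* null embryos 0 of 12 passed by edgeR or DESeq2, and 2 at an unadjusted *P* below 0.05 (median 0.13).

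Hepatocyte transcription factors were less uniform, with 3 of 15 lower in *Carm1* null embryos, beside 7.83% of all genes, and a median of -0.12. *Hnf4a* was at 3.46, 6.11 and 5.30 CPM against 13.6, 10.2 and 13.1 CPM (log2 fold change -1.30, SE 0.16, edgeR, Benjamini-Hochberg adjusted *P* = 2.1e-06), *Cebpa* was lower by 0.45 (0.015) and *Nr5a2* by 0.71 (0.011). *Prox1*, *Foxa2* and *Foxa3* did not pass. Of the 15 tested in the *Pax3* line 0 passed by edgeR or DESeq2, and 6 at an unadjusted *P* below 0.05. Of all genes there, 10.5% fell and 14.0% rose by edgeR. *Hnf4a* was at 7.73, 9.06 and 9.04 CPM there against 12.1, 11.1 and 9.28 CPM (log2 fold change -0.32, edgeR, Benjamini-Hochberg adjusted *P* = 0.053).

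Markers of other cells were read beside these, and their part in the members' levels was not tested. The shares of all genes called by edgeR were 7.83% lower and 5.49% higher in the *Carm1* line. They were 10.5% lower and 14.0% higher in the *Pax3* line. All 12 erythroid markers, which mark the blood cells that fill the fetal liver, fell in *Carm1* null embryos (median -0.54). Their summed level was 892 to 1000 CPM in the null and 1250 to 1410 CPM in the wild-type libraries, and none was at 0. Among them 1 fell in the *Pax3* line (*Rhag*) and 1 rose (*Epor*), with sums of 732 to 925 and 792 to 1140 CPM. Yolk sac endoderm markers summed to 173 to 184 CPM in the *Carm1* null and 173 to 179 CPM in the wild-type libraries, and 1 of 7 rose (*Lrp2*, by 0.44). In the *Pax3* null they summed to 146 to 160 CPM against 171 to 192 CPM, and *Cubn* and *Dab2* fell. Most of these sums came from *Dab2*, which other cells express, while *Amn*, *Rhox5* and *Slc13a4* were at 0.195 to 2.02 CPM in every library. Choroid plexus markers summed to 61.7 to 70.7 CPM against 64.9 to 70.3 CPM in the *Carm1* line, with *Aqp1* lower and *Otx2* higher among 9. In the *Pax3* line they summed to 55.1 to 60.9 CPM against 56.9 to 61.1 CPM. Most of each sum came from *Otx2*, *Aqp1*, *Foxj1* and *Clic6*, while *Kl*, *Folr1* and *Kcnj13* were at 0.29 to 2.41 CPM in every library. Macrophage markers summed to 121 to 135 CPM against 119 to 125 CPM in the *Carm1* line, with 0 of 7 called by edgeR or DESeq2 and 3 at an unadjusted *P* below 0.05. Their sums in the *Pax3* line were 83.7 to 93.3 CPM against 84.5 to 90.6 CPM, with *Mrc1* lower and *C1qc* higher. Intestinal markers summed to 8.29 to 11.7 CPM in every library of both lines, and 0 passed at either the adjusted or the unadjusted threshold.

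**Figure D5:**
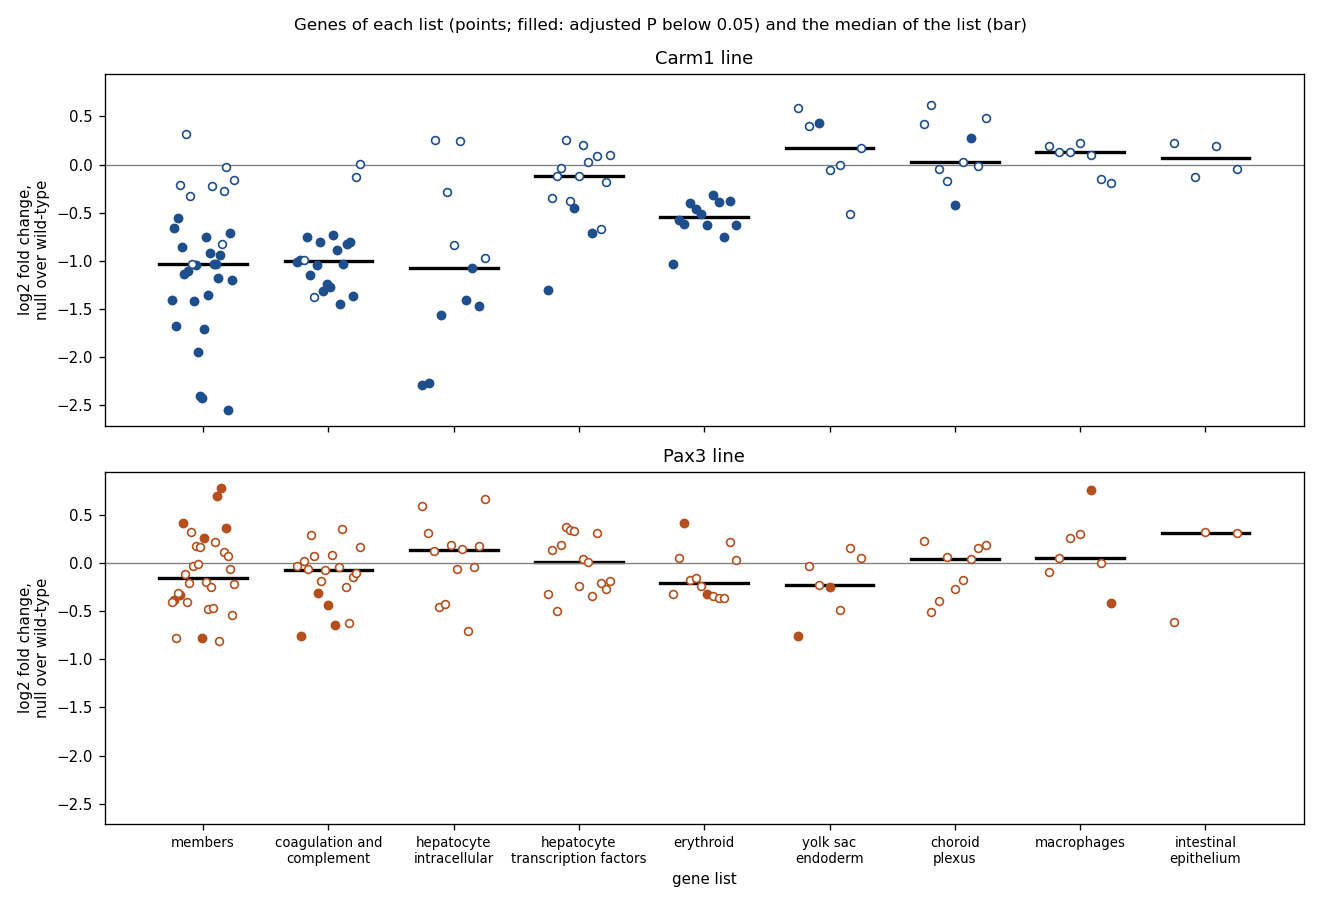
Log2 fold change (vertical axis, null over wild-type) of every tested gene of 9 lists, in the *Carm1* line (top) and the *Pax3* line (bottom), with the list median as a bar and genes that passed the edgeR test filled. In the *Carm1* line the members, the coagulation and complement genes and the hepatocyte intracellular genes have medians between -1.07 and -1.0 and the erythroid genes of -0.54.

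The receptors that take up these proteins were mixed. Of 23 tested lipoprotein receptors and lipid transfer genes, 4 fell in *Carm1* null embryos and 2 rose by edgeR. Of all genes, 7.83% fell and 5.49% rose there, so the share that rose was near that of all genes. DESeq2 called 2 of the list lower and 0 higher. *Abca1*, which exports cholesterol to apolipoprotein A-I, had a log2 fold change of -0.27 (edgeR, Benjamini-Hochberg adjusted *P* = 0.00032) and *Lcat*, which esterifies cholesterol on the particles, one of -0.52 (0.013), while *Pltp*, the phospholipid transfer protein, had one of 0.30 (0.022). In *Pax3* null embryos *Angptl4*, an inhibitor of lipoprotein lipase, rose by 0.34 (edgeR, Benjamini-Hochberg adjusted *P* = 0.0027). Among 7 tested receptors of the plasma carriers, the transferrin receptors *Tfrc* (-0.38) and *Tfr2* (-0.68) fell in *Carm1* null embryos, and *Stra6*, the receptor for the retinol-binding protein (0.23), and *Lrp2* (0.44) rose. In *Pax3* null embryos *Cubn* fell and *Fcgrt* rose among the 7, where 10.5% of all genes fell and 14.0% rose.

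Promoter sequence was available for 33 of the 42 members, and 250 bases before each start were searched on both strands beside the promoters of 27025 genes. The short HNF1 motif GTTAAT was present in 14 members (42.4%) and in 7.49% of all genes, and the longer TTAATNATT in 3 (9.09%, against 1.64%). The C/EBP motif TTGCNNAA was present in 14 (42.4%, against 10.8%), TGTTTAC of FOXA in 4 (12.1%, against 3.54%) and TATAAA in 9 (27.3%, against 14.3%). The HNF4 motif CAAAGTCCA was in 0 members and in 0.451% of all genes. The 5 *Serpina1* copies are not independent in these counts. Of 13 tested members with the short HNF1 motif 10 fell in *Carm1* null embryos, and of 14 tested members without it 11 fell. In *Pax3* null embryos 2 of 3 tested members with the FOXA motif rose and 0 fell, where 14.0% of all genes rose and 10.5% fell. Of the 2, *Rbp4* lost its call with length and GC offsets. Of 22 tested there without it, 2 rose and 2 fell. Of 6 tested members with TATAAA 3 rose and 1 fell there, and of 19 without it 1 rose and 1 fell. In *Carm1* null embryos 3 of 3 tested members with the FOXA motif fell, and 18 of 24 without it. These numbers are small, and a link between a motif and the changes was not tested.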

How the data were processed

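The authors deposited 1 table of raw counts per gene for each line, with 3 null and 3 wild-type embryos in each. Per the labels and the study's methods, reads (paired-end, 150 bases) were aligned to mm10 with STAR and counted with featureCounts, and the authors tested each line with DESeq2. Tool versions, how strand was set and how reads with several matches were handled are not given in the sources used here. Reads shared by near-identical copies and by genes on opposite strands are therefore uncertain.

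Each line was fitted on its own in edgeR 4.0.16 (R 4.3.3, limma 3.58.1) with filterByExpr, TMM library sizes, robust quasi-likelihood and Benjamini-Hochberg adjustment over all genes tested, at a threshold of 0.05. The difference between the lines was a contrast in one fit of all 12 libraries. DESeq2 1.42.0, other scalings and filters, a replicate block, a term for libraries with at least 100 Y-linked counts, length and GC offsets (splines with 5 degrees of freedom) and leaving out each library were the alternatives. The scripts were tested on simulated data. The labels do not say whether embryos shared a litter, so p-values measure only the spread between these samples. The correlation of deviations between libraries with the same number ran from -0.042 to 0.001 in the *Carm1* line and from -0.092 to 0.227 in the *Pax3* line. Between libraries with unlike numbers it ran from -0.01 to 0.05 and from -0.325 to 0.236. Values for the same number did not exceed these, so numbers were not taken as pairs.

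Depth was 17183344 to 23518692 counts per library. Exon lengths came from GENCODE vM21 (GRCm38), in which 21785 genes matched by symbol, 1267 by an older symbol and 368 not at all, and all 42 members matched. Promoters came from a RefSeq table, in which 33 members matched (not *Apoc1*, *Apoc3*, *Hp*, *Orm1*, *Serpina3k*, *Serpina3m*, *Serpina6*, *Trf* or *Ttr*). Library values were given for the members with the highest level in each role (up to 5), for those called in the difference between the lines and for those called in opposite directions, and for other members where a result turned on a library, which were chosen after their values were seen. The members and all gene lists were chosen with earlier results of these data known. A few genes of these lists are not reported here.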

Additional observations from a re-analysis of the deposited data

Results flagged for a closer look

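The test of the difference between the lines (*Carm1* null effect minus *Pax3* null effect, log2 scale, edgeR with Benjamini-Hochberg adjustment) passed for 18 members, which are given here as values. Among albumin and the carriers, the difference was -0.99 for *Alb*, -1.27 for *Rbp4*, -1.01 for *Serpina6*, -0.88 for *Hpx* and 0.73 for *Cp*. Among protease inhibitors it was -1.58 for *Serpina1a*, -1.02 for *Serpina1b*, -3.07 for *Serpina1c*, -2.57 for *Serpina1d*, -4.24 for *Serpina1e*, -0.92 for *Pzp*, -1.0 for *Ambp* and -1.15 for *Itih1*. The 5 *Serpina1* copies share sequence and are not independent, and *Serpina1c* and *Serpina1e* had at most 14 counts in any *Pax3*-line library. Among apolipoproteins it was -1.23 for *Apoa1*, -1.86 for *Apoa2*, -0.37 for *Apoe*, -2.60 for *Apoh* and -0.63 for *Apom*. *Serpina1c*, *Serpina1d* and *Apoh* had each reached the filter cutoff of the *Carm1* line in 2 null and 3 wild-type libraries. The lines also differ in strain background, which cannot be told apart from the difference between the genes deleted.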

How the results depend on the processing

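In the *Carm1* line 18 to 25 members fell under every alternative and the members' median stayed negative, while the number of genes called overall ran from 1224 to 2290 when 1 library was left out. In the *Pax3* line the members called lower were 6 with a term for Y-linked counts and 3 to 5 without 1 library. Those called higher were 3 in one fit of all 12 libraries, 1 with length and GC offsets and 3 to 5 without 1 library, and the median was -0.24 with those offsets. All genes called there ran from 2454 to 4103 without 1 library. In the difference between the lines the members called higher were 0 with length and GC offsets and 0 to 1 without 1 library, and the median ran from -1.01 to -0.72. With the replicate number as a block, a pairing that the labels do not give, 23 members fell in the *Carm1* line (1787 genes called), 4 fell and 6 rose in the *Pax3* line (4177), and 20 and 1 differed between the lines (3094). DESeq2 called 24 and 0, 4 and 5, and 18 and 1. Signs turned for 5, 17 and 10 refitted values of single members in the *Carm1* line, the *Pax3* line and their difference. In the *Carm1* line, the Y-linked term gave 0.368 for *Hp* and 0.073 for *Apoe*, and without 1 library *Hp* ran from -0.634 to 0.367 and *Apoe* from -0.075 to 0.073. In the *Pax3* line, length and GC offsets gave -0.074 for *Apoa1*, -0.221 for *Apoc2*, -0.055 for *Apoh* and -0.003 for *Serpina1d*. Without 1 library there, *Serpina6* ran from -0.209 to 0.075, *Hp* from -0.054 to 0.981, *Ahsg* from -0.145 to 0.038, *Serpina1b* from -0.164 to 0.073, *Serpina1d* from -0.097 to 0.349, *Itih1* from -0.379 to 0.027, *Apoh* from -0.365 to 0.254 and *Apom* from -0.129 to 0.007. The difference between the lines ran from -0.407 to 0.113 for *Ttr*, -1.29 to 0.048 for *Hp*, -0.101 to 0.25 for *Itih3*, -0.406 to 0.02 for *Apob* and -0.029 to 0.141 for *Mttp*. The cause was not tested. DESeq2 gave no adjusted *P* for some genes with few counts, and those were left out. With few counts in a library the values are less precise, as for *Apoh* and *Serpina1c*, which had 7 counts in *Carm1* null replicate 1 and were still called.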
